A study of Mus musculus with 24 samples.

Results

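The 35 genes described here code for the proteins that help other proteins to fold, and for the regulators that answer when folding fails or amino acids run short. They are members of a gene module chosen by name, out of 35460 mouse genes that the deposited kidney RNA files cover. The module has 3 arms: 12 genes of the endoplasmic reticulum, 9 genes of the ATF4 arm, and 14 chaperone genes of the cytosol and mitochondria. All 35 passed the filter on low counts in both experiments.

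The libraries form 5 groups in 2 experiments. In the knockout experiment, 6 libraries labelled EKO came from Cre-positive mice in which a floxed Enpp1 gene was to be deleted by a tamoxifen-inducible CAG-ERCre transgene. In the WT group, 6 libraries came from Cre-negative mice, and both of these groups ate an adenine diet for 14 days. A further 4 libraries, called chow, came from mice without adenine, whose genotype the labels do not state. In the antibody experiment all mice ate adenine, again for 14 days, and were injected intraperitoneally with 50 mg/kg of antibody 2 times a week. The mAb group (4 libraries) had a monoclonal antibody against human ENPP1, and the IgG group (4 libraries) had a control antibody. The labels do not state whether these mice carried human ENPP1, nor the sex, age and strain of any mice. ENPP1 is an ectonucleotidase that splits extracellular ATP, and adenine in the diet forms a poorly soluble product that precipitates in kidney tubules.

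The unfolded protein response starts at the membrane of the endoplasmic reticulum, where the sensors IRE1, ATF6 and PERK detect misfolded protein. IRE1 splices the messenger RNA of Xbp1 and ATF6 is cut to release a transcription factor; both raise chaperones of the reticulum through the ER stress response element of their promoters. PERK, like the other kinases of eIF2alpha, slows translation and favours that of ATF4, which turns on genes of amino acid synthesis and, under lasting stress, Ddit3. In the cytosol, heat shock factor HSF1 binds heat shock elements and raises Hspa1a, Hspa1b and their helpers. In the kidney, the proximal tubule carries a heavy load of membrane protein and mitochondria.

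Depth was 21057859 to 28213689 assigned reads per library in the knockout experiment and 43886517 to 50566596 in the antibody experiment. Levels are given as CPM, read counts relative to library size, after TMM scaling, which sets libraries to a common level by the bulk of their genes. Plus-minus values are SDs over libraries. As a check of the labels, Enpp1 RNA was 21.5 to 24.7 CPM (median 22.3) in the libraries labelled EKO and 20.8 to 24.9 CPM (median 21.3) in WT libraries on adenine, an edgeR log2 fold change of 0.05 (95% interval -0.06 to 0.16, edgeR adjusted p = 0.465). Enpp1 RNA was therefore not lower in the libraries labelled EKO, and every direction below that involves them rests on the label; the deleted part of the gene is not named in the labels. In the antibody experiment Enpp1 was 9.51, 2.62, 3.26 and 17.4 CPM with mAb and 7.94, 8.85, 8.68 and 7.21 CPM with IgG. Proximal tubule markers, summed over 8 genes, stood at 3990 to 8270 CPM in EKO libraries, 1690 to 3150 in WT libraries and 11000 to 11300 in chow libraries, and at 3600 to 5160 with mAb against 942 to 1550 with IgG. Macrophage markers, also 8 genes, summed to 367 to 515, 334 to 514 and 160 to 177 CPM in EKO, WT and chow libraries, and to 161 to 245 with mAb against 360 to 670 with IgG; none was at 0 in any group. By edgeR 7 of 8 proximal tubule markers were lower in EKO and 8 of 8 in WT libraries than in chow, and 8 of 8 were higher both in EKO than in WT and with mAb than with IgG. Red blood cell markers (5 genes) summed to 204 to 491 CPM in EKO, 12.5 to 35.6 in WT and 1070 to 1290 in chow libraries, and to 37.6 to 56.2 with mAb and 25.3 to 49.7 with IgG. Fibroblast markers (8 genes) summed to 537 to 804, 435 to 663 and 310 to 323 CPM in EKO, WT and chow, and to 149 to 231 with mAb and 377 to 693 with IgG. These markers went both ways against chow: 4 were higher and 3 lower in EKO, and 3 higher and 4 lower in WT. The 3 higher in WT were the collagen genes Col1a1, Col1a2 and Col3a1. In EKO over WT 4 were higher and 0 lower, and with mAb 0 were higher and 7 lower. Neutrophil markers (6 genes) summed to 30.9 to 56.5, 43.3 to 63.2 and 8.20 to 12.8 CPM in EKO, WT and chow. They summed to 8.13 to 11.4 with mAb and 15.7 to 23.0 with IgG. Plasma and B cell markers (9 genes) summed to 40.8 to 69.5, 44.6 to 101 and 37.9 to 40.3 CPM in EKO, WT and chow. With mAb, where Tnfrsf17 was at 0, they summed to 21.4 to 30.8 CPM, and with IgG to 45.8 to 56.0. Genes that define kidney tissue (8 genes) summed to 7630 to 10500, 3880 to 5650 and 23700 to 27800 CPM in EKO, WT and chow. They summed to 14000 to 22000 with mAb and 4490 to 8040 with IgG. Kap alone had a mean of 15800 CPM in chow and 357 in WT, so it weighs heavily in these sums. Slc12a3 went the other way, at 1130 CPM in WT and 524 in chow. Of the list, 6 genes were lower and 1 higher in EKO than in chow, and 7 lower and 1 higher in WT. In EKO over WT, and with mAb over IgG, 7 were higher and 0 lower. The part of these cell type markers in the changes below was not tested, and in bulk tissue fewer cells of a type and less RNA per cell cannot be told apart.

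On adenine most of the module fell relative to chow. In EKO libraries, 27 of 35 genes were lower than in chow and 1 was higher, where 39.9% of all 16965 genes tested were lower, 40.2% higher and 80.1% called in either direction (edgeR quasi-likelihood test, adjusted p threshold 0.05). In WT libraries 26 were lower and 1 was higher, against 40.9% and 44% of all genes and 84.9% in either direction. For 21 of the 35 genes every EKO library lay below every chow library, a pattern of 36% of all genes (33.7% lay above), and for 25 every WT library did, a pattern of 37.4% (37.8% above). The median log2 fold change of the 35 genes was -0.55 in EKO and -0.93 in WT libraries, beside 0.03 and 0.07 over all genes tested. Both comparisons use the same 4 chow libraries. The one gene that rose was Hspb1, a small heat shock protein, in both.

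Labelled EKO against WT on adenine, and mAb against IgG, both had more of the module higher than lower. In EKO libraries 16 of 35 genes were higher and 2 lower than in WT libraries, where 25.1% and 21.3% of all genes were, or 46.4% in either direction. The median was 0.15, beside -0.02 over all genes. With mAb 19 were higher and 5 lower than with IgG, where 27.2% and 28% of the 16410 genes tested were, or 55.3% in either direction. The median was 0.25, beside -0.04. Every library of the one group lay above every library of the other for 11 of 35 genes in EKO over WT, a pattern of 14.4% of all genes, and for 19 of 35 in mAb over IgG, a pattern of 25.4%. The reverse held for 1 gene in EKO and 4 genes with mAb, patterns of 10.2% and 25.2% of all genes.

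The scale of these comparisons depends on how libraries are set to a common level. TMM factors were 1.04 to 1.14 in EKO, and 1.06 to 1.24 in WT libraries, against 0.717 to 0.741 in chow. Dividing by total reads moved the median of all genes to 0.60 in EKO and 0.72 in WT libraries against chow, and to -0.10 for EKO against WT and -0.28 for mAb against IgG. Relative to that median, the module's median was -0.58, -1, 0.17 and 0.27 in those 4 comparisons, and with TMM -0.58, -1, 0.17 and 0.29. A change of scaling moves all genes by nearly the same amount, so these values had to be alike and are no check of either scaling. With total-read scaling 16 of 35 genes were lower and 7 higher in EKO and 18 lower and 8 higher in WT than in chow, and 10 were higher and 8 lower with mAb. Single genes that changed by less than about that shift can turn with the scaling, and they are named as such below.

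**Figure D1:**
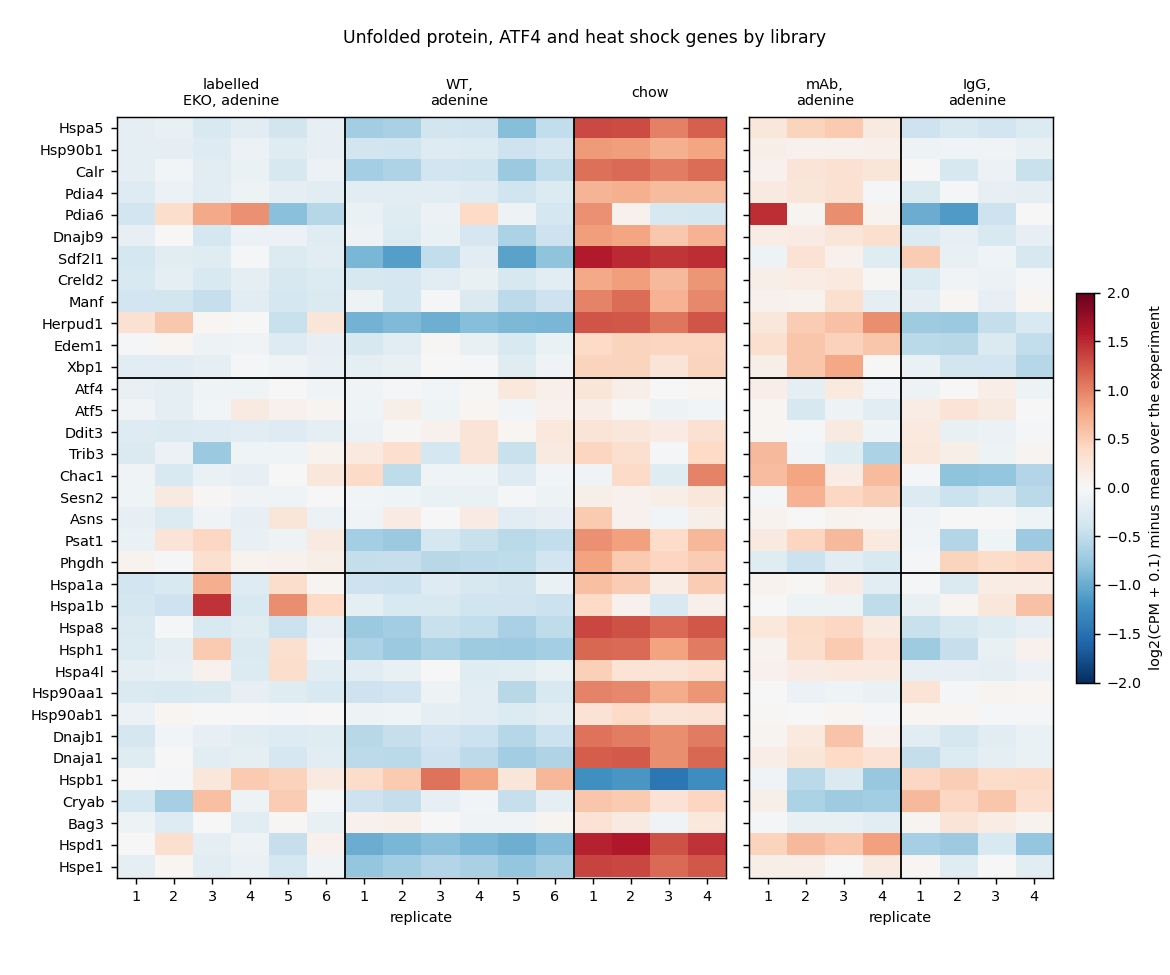
Each row is a gene of the module and each column a library; colour is log2(CPM + 0.1) minus the gene's mean over its experiment, with EKO left of WT and chow, and mAb left of IgG. Chow libraries are red in most rows and blue for Hspb1, and replicates 3 and 5 of EKO stand out in Hspa1a, Hspa1b and Cryab.

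In the arm of the endoplasmic reticulum, 11 of 12 genes were lower and 0 higher on adenine than on chow in both genotypes. In EKO 5 of 12 were higher and 0 lower than in WT, and with mAb 10 were higher and 0 lower than with IgG. Of all genes tested, 39.9% were lower and 40.2% higher in EKO than in chow, and 40.9% lower and 44% higher in WT. The shares were 25.1% higher and 21.3% lower in EKO over WT, and 27.2% higher and 28% lower with mAb. Hspa5, which encodes BiP, the Hsp70 of the reticulum and the main reporter of the unfolded protein response, had 147 to 170 CPM (median 164) in EKO libraries, 104 to 147 CPM (median 127) in WT libraries and 473, 468, 378 and 434 CPM in the 4 chow libraries. All chow libraries lay above all adenine libraries, and the EKO and WT ranges overlapped only where the highest WT library met the lowest EKO library. The edgeR log2 fold change was -1.44 (95% interval -1.63 to -1.26, edgeR adjusted p = 1.85e-11) in EKO over chow and -1.78 in WT over chow (adjusted p = 4.67e-13). Between the adenine groups it was 0.34 (95% interval 0.17 to 0.50, edgeR adjusted p = 0.00183). With mAb, Hspa5 held 497, 576, 611 and 480 CPM, against 318, 341, 324 and 348 CPM with IgG, without overlap (log2 fold change 0.70, edgeR adjusted p = 0.000147).

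Hsp90b1 and Calr were likewise lowest in WT libraries and highest in chow. Hsp90b1, the Hsp90 of the reticulum (GRP94), stood at 284 to 312 CPM (median 299) in EKO libraries, 255 to 284 CPM (median 265) in WT libraries and 610, 606, 557 and 589 CPM in chow libraries. Calr, the calcium-binding lectin chaperone calreticulin, stood at 284 to 342 CPM (median 318), 212 to 272 CPM (median 243) and 768, 778, 723 and 772 CPM in the same 3 groups. Neither gene's EKO and WT ranges overlapped, although for Hsp90b1 they met within rounding. Their edgeR log2 fold changes in EKO over WT were 0.15 and 0.37 (adjusted p = 0.01 and 0.000131), and that of Hsp90b1 missed the threshold when libraries were scaled by upper quartile or total reads. With mAb, Calr was 519, 583, 600 and 575 CPM, against 489, 389, 448 and 358 CPM with IgG (log2 fold change 0.44, 95% interval 0.21 to 0.66, edgeR adjusted p = 0.00453), a call that total-read scaling took below the threshold at 0.20. Hsp90b1 was higher with mAb by 0.20 (edgeR adjusted p = 0.0258). That value turned to -0.05 with total-read scaling and lost its call without mAb replicate 2 or IgG replicate 4, over a range of 0.18 to 0.22 for the 8 omissions.

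The promoters of these 3 genes, with those of Creld2 and Pdia6, hold the ER stress response element, which is the reason they are printed here. RefSeq promoters of build GRCm38.p6 (250 bases before to 50 after the start of transcription) were found for 30 of the 35 genes. The element, which reads CCAAT, 9 bases of any kind and CCACG on either strand, occurs in 5 of the 11 promoters of the reticulum arm, in 0 of 9 of the ATF4 arm and in 0 of 10 of the chaperone arm, and in 0.137% of all 27025 genes with a promoter in that table. The submitters' notes name build GRCm39, so the coordinates belong to these sequences and not to the deposited values. CCACG alone occurs in 10 of 11, 7 of 9 and 6 of 10 promoters of the arms and in 35.5% of genes. TGACGTGG, the letters of another element of this response, occurs in 0 of the 30 and in 0.714% of genes. The sequences run 5′ to 3′ on the strand of the gene, with the letters of the element in capitals (CGTGG and ATTGG where it lies on the opposite strand). A match is a description of the letters and shows no binding. They are Hspa5 at chr2:34771840-34772089 (plus strand), Hsp90b1 at chr10:86705503-86705686 (minus), Calr at chr8:84847045-84847123 (minus), Creld2 at chr15:88819490-88819568 (plus) and Pdia6 at chr12:17266461-17266539 (plus).
Hspa5: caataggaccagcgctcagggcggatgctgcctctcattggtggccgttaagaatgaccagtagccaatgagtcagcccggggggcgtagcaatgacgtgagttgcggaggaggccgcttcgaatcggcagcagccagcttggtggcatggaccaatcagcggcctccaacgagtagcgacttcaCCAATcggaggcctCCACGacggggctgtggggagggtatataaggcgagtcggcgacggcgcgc
Hsp90b1: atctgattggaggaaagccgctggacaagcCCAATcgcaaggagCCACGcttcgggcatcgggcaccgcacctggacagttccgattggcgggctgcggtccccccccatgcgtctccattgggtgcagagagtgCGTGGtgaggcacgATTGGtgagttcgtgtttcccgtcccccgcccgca
Calr: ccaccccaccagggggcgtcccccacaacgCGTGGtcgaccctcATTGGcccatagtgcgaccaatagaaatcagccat
Creld2: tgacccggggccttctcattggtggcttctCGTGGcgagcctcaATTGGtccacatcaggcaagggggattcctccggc
Pdia6: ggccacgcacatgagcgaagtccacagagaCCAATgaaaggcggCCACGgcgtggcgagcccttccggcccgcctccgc

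Creld2 and Manf were lower on adenine to a like extent in both genotypes. Creld2, which codes for a secreted disulfide isomerase-like protein, was 20.3 to 22.4 CPM (median 20.7) in EKO libraries, 19.9 to 22.8 CPM (median 20.9) in WT libraries and 42.8, 45.2, 39.8 and 46.5 CPM in chow libraries. The EKO and WT ranges overlapped (EKO over WT log2 fold change 0.00, 95% interval -0.10 to 0.11, edgeR adjusted p = 0.949), and both lay below all of chow. With mAb it was higher, at 26.1, 26.6, 27.6 and 24.4 CPM, against 19.8, 22.8, 22.1 and 23.5 CPM with IgG (0.25, edgeR adjusted p = 0.0139), a difference that turned to -0.01 with total-read scaling. Manf, a secreted factor of the reticulum with no promoter in the table, was 36.8 to 43.2 CPM (median 39.2), 35.2 to 48.97 CPM (median 40.5) and 100, 110, 81.7 and 98.8 CPM in EKO, WT and chow libraries, with no call in EKO over WT or in mAb over IgG (edgeR adjusted p = 0.495 and 0.221). Sdf2l1, a cofactor of BiP, had the largest fall of the arm in both genotypes: 5.68 to 7.19 CPM (median 6.19) in EKO libraries and 3.34 to 6.21 CPM (median 3.97) in WT libraries, against 22.2, 20.7, 19.9 and 20.5 CPM in chow (log2 fold change -1.73 and -2.27, edgeR adjusted p = 2.46e-10 and 4.01e-12). With mAb, Sdf2l1 was 5.11, 6.72, 5.86 and 4.65 CPM, against 7.83, 4.96, 5.20 and 4.41 CPM with IgG, and did not pass the test (log2 fold change 0.00, 95% interval -0.41 to 0.41, edgeR adjusted p = 0.999). Pdia4, an isomerase that forms disulfide bonds, and Dnajb9, an Hsp40 partner of BiP, were lower than in chow in EKO libraries (log2 fold change -0.85 and -0.88) and in WT libraries (-0.93 and -1.02). Neither passed between EKO and WT (edgeR adjusted p = 0.116 and 0.163), and both were higher with mAb, by 0.35 and 0.45 (adjusted p = 0.00534 and 0.000275). The rise of Pdia4 missed the threshold with upper-quartile scaling, and both missed it with total-read scaling.

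Herpud1 showed the widest gap of the arm between the adenine groups. It codes for a protein of the reticulum membrane that serves the breakdown of misfolded proteins. Herpud1 was 112 to 222 CPM (median 168) in EKO libraries and 77.6 to 84.02 CPM (median 81.1) in WT libraries, against 364, 359, 320 and 363 CPM in chow. The WT libraries were tightly grouped below every EKO library, and chow lay above both. EKO exceeded WT with log2 fold change 1.06, 95% interval 0.83 to 1.29, edgeR adjusted p = 5.4e-07, and the fall against chow was -1.06 in EKO and -2.12 in WT libraries. With mAb it was 119, 144, 153 and 194 CPM, against 61.96, 60.7, 73.4 and 82.2 CPM with IgG, again without overlap (log2 fold change 1.13, 95% interval 0.81 to 1.45, edgeR adjusted p = 0.00014).

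Edem1 and Xbp1, like Creld2, Pdia4, Dnajb9 and Pdia6 of the same arm, separated the antibody groups but not the EKO and WT groups. Edem1, a lectin that sends misfolded glycoproteins to breakdown, was 80.3, 94.2, 88.4 and 93.8 CPM with mAb, against 43.9, 43.6, 52.4 and 45.3 CPM with IgG (log2 fold change 0.95, 95% interval 0.77 to 1.12, edgeR adjusted p = 4.35e-05). In EKO libraries it was 33.9 to 41.9 CPM (median 38.4) and in WT libraries 32.8 to 41.4 CPM (median 35.7), overlapping ranges that did not pass the test (edgeR adjusted p = 0.233). Xbp1, the transcription factor spliced by IRE1, was 182, 246, 289 and 169 CPM with mAb, against 153, 131, 128 and 113 CPM with IgG (log2 fold change 0.76, 95% interval 0.40 to 1.11, edgeR adjusted p = 0.00248), and -0.03 (95% interval -0.14 to 0.07, edgeR adjusted p = 0.625) in EKO over WT. The sum over Xbp1 transcripts does not separate the spliced form, which was not analysed here. Against chow, Edem1 and Xbp1 fell by modest amounts in EKO (-0.52 and -0.55) and WT libraries (-0.61 and -0.51), and all 4 values turned to between 0.02 and 0.13 with total-read scaling. Whether the change of these 2 genes differs between the antibody and the knockout experiment was not tested.

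Pdia6, a disulfide isomerase, has uncertain values here. Its values ran from 2.09 to 13.2 CPM over the 24 libraries, and only 23.1% of its reads were assigned to its coding transcripts. It was 13.2, 4.85, 8.98 and 4.91 CPM with mAb, against 2.29, 2.09, 3.48 and 4.71 CPM with IgG (log2 fold change 1.35, 95% interval 0.57 to 2.12, edgeR adjusted p = 0.00778), and not called in the other 3 comparisons. Its coding transcript had 0 reads in all 4 IgG libraries and in 3 of the 4 mAb libraries, and 321 in the remaining one. Pdia6 is nevertheless counted among the genes of the arm that were higher with mAb. Total-read and upper-quartile scaling left 9 and 11 genes of the reticulum arm lower against chow in either genotype, and 5 and 7 of 12 higher with mAb.

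**Figure D2:**
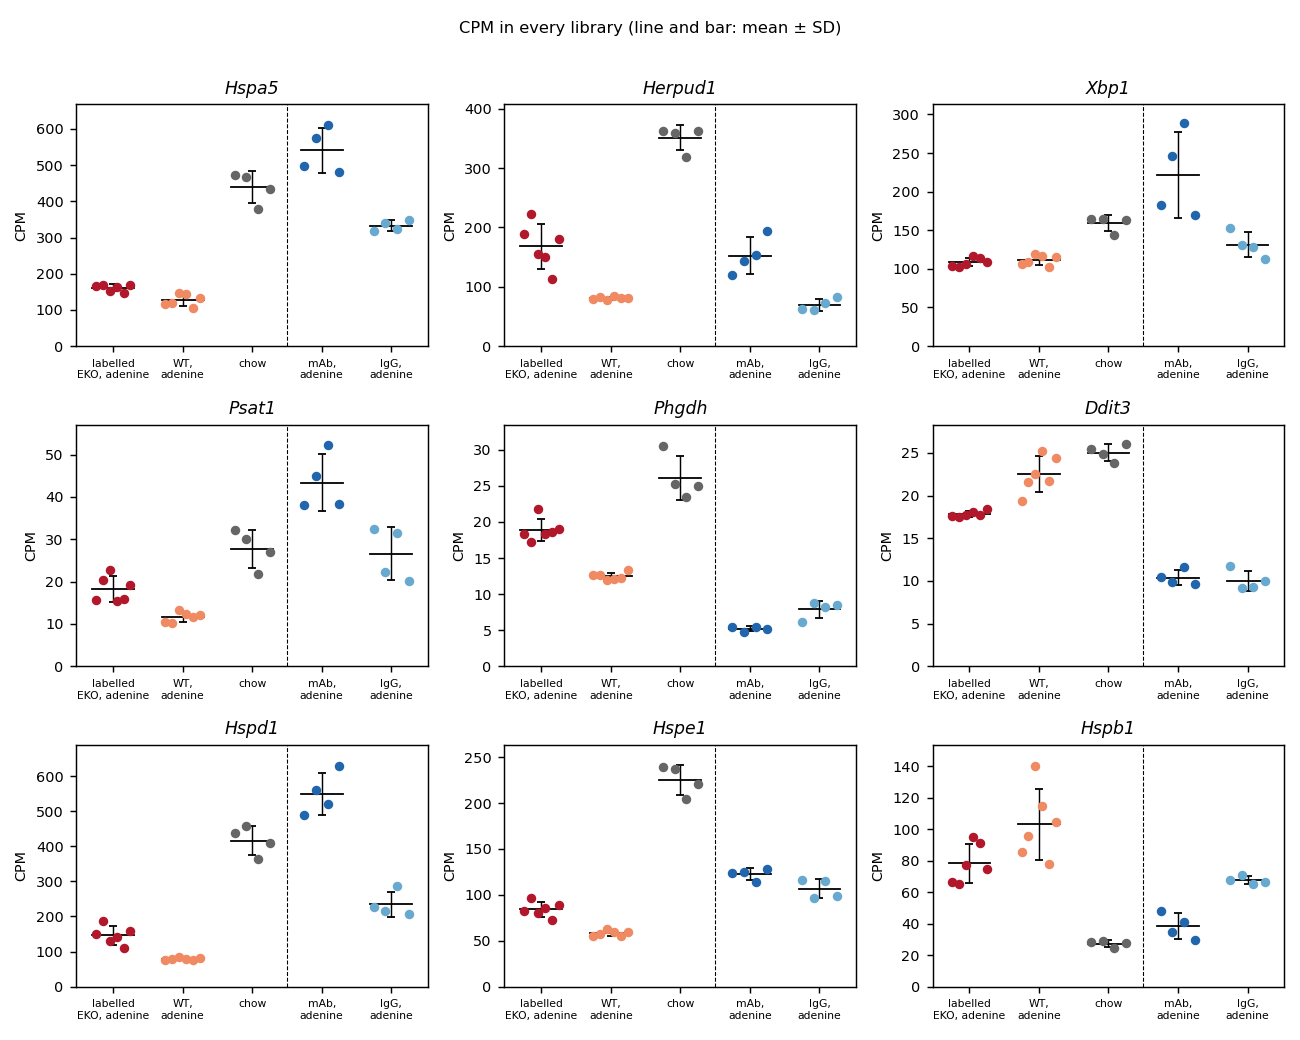
CPM of 9 genes in every library of the 5 groups; lines and bars are group means ± SD, and a dashed line divides the 2 experiments, which were scaled separately. Herpud1, Hspd1 and Psat1 are higher in EKO than WT and in mAb than IgG without overlap, Phgdh is higher in EKO and lower in mAb, and Hspb1 is the gene that is higher on adenine than on chow.

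Of the 9 genes of the ATF4 arm, 6 were lower in EKO and 4 in WT libraries than in chow and 0 higher, with other counts under total-read scaling as given below. In EKO 2 were higher and 1 lower than in WT, and with mAb 3 were higher and 2 lower than with IgG. Over all genes tested, 39.9% were lower and 40.2% higher in EKO than in chow, and 40.9% lower and 44% higher in WT. In EKO over WT 25.1% were higher and 21.3% lower, and with mAb 27.2% higher and 28% lower. The count of lower genes in WT over chow and the counts in the last 2 comparisons lie near those shares. The count of 0 genes higher than chow in either genotype lies below the shares of 40.2% and 44%. Atf4 RNA, whose protein is set mainly by translation, was 86.7 to 99.3 CPM (median 93.3) in EKO libraries and 94.4 to 114 CPM (median 98.4) in WT libraries, against 117, 108, 98.1 and 102 CPM in chow. The 3 ranges overlapped. The edgeR log2 fold changes were -0.20 in EKO over chow (adjusted p = 0.00642), -0.07 in WT over chow (0.285) and -0.13 in EKO over WT (0.0659). The call against chow was lost without chow replicate 1, over a range of -0.22 to -0.12. EKO over WT was called lower with upper-quartile (-0.19) and total-read scaling (-0.20), and without EKO replicate 5 or WT replicate 1, over a range of -0.15 to -0.09. Atf5, a related factor, was 21.4 to 27.7 CPM (median 24.6), 23.1 to 26.6 CPM (median 24.4) and 27.03, 24.9, 22.99 and 23.6 CPM in EKO, WT and chow libraries, with no call. With total-read scaling both genes were called higher than chow in either genotype. With mAb, Atf4 was 86.5, 69.1, 90.8 and 76.4 CPM, against 73.8, 78.7, 86.8 and 73.6 CPM with IgG (log2 fold change 0.04, 95% interval -0.16 to 0.25, edgeR adjusted p = 0.701), and Atf5 was 11.3, 8.74, 10.1 and 9.32 CPM, against 12.1, 13.2, 12.3 and 11.03 CPM (log2 fold change -0.30, 95% interval -0.52 to -0.09, edgeR adjusted p = 0.0226). The Atf5 call was lost on leaving out any of 4 single libraries: replicate 2 or 4 of mAb, or replicate 2 or 3 of IgG, over a range of -0.37 to -0.25 for all 8 omissions.

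Ddit3, which encodes the stress factor CHOP, was lower in EKO than in WT. It was 17.5 to 18.4 CPM (median 17.7) in EKO libraries and 19.4 to 25.2 CPM (median 22.1) in WT libraries, against 25.4, 24.9, 23.8 and 26.1 CPM in chow. The EKO libraries lay close together, below all of WT and chow (log2 fold change -0.33, 95% interval -0.45 to -0.22, edgeR adjusted p = 7.17e-05). EKO over chow was -0.49 (95% interval -0.62 to -0.36, edgeR adjusted p = 5.24e-07), which turned to 0.08 with total-read scaling. WT and chow overlapped. The fall of -0.16 (edgeR adjusted p = 0.0227) lost its call without WT replicate 1 or without chow replicate 1, 2 or 4, with values from -0.18 to -0.11 over the omissions, and turned to 0.07 with upper-quartile scaling and 0.49 with total-read scaling. In the antibody experiment Ddit3 was 10.5, 9.86, 11.6 and 9.61 CPM with mAb, against 11.7, 9.13, 9.33 and 10 CPM with IgG (log2 fold change 0.05, 95% interval -0.18 to 0.28, edgeR adjusted p = 0.709).

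Trib3 and Chac1, targets of ATF4 and CHOP that curb kinase signalling and break down glutathione, were expressed at low levels. Trib3 was 0.774 to 1.45 CPM (median 1.27) in EKO libraries, 0.972 to 1.74 CPM (median 1.57) in WT libraries and 1.87, 1.73, 1.33 and 1.82 CPM in chow. Only EKO against chow was called (-0.51, edgeR adjusted p = 0.027), and that call was lost without EKO replicate 3 or chow replicate 1, 2 or 4 (range -0.59 to -0.41). Chac1 was 0.914, 1.04, 0.633 and 0.930 CPM with mAb, against 0.556, 0.281, 0.289 and 0.344 CPM with IgG, without overlap (log2 fold change 1.27, 95% interval 0.64 to 1.90, edgeR adjusted p = 0.00342), and was not called in the knockout experiment. The promoters of Chac1 at chr2:119351019-119351086 (plus strand) and of Herpud1 at chr8:94386287-94386354 (plus strand) are the 2 of 30 that hold the ATF4 and C/EBP type sequence TGATGCAA, here as its reverse complement TTGCATCA in capitals; 1.03% of genes in the table hold it. The related form TGATGNAAT occurs in 0 of the 30 and in 1.08% of genes.
Chac1: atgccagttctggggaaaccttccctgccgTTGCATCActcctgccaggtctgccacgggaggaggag
Herpud1: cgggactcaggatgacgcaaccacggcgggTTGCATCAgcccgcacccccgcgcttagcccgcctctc

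Sesn2, a stress-induced inhibitor of mTORC1, was 23.7, 39, 32.2 and 33.9 CPM with mAb, against 19.9, 17.8, 19.3 and 16.5 CPM with IgG, without overlap (log2 fold change 0.81, 95% interval 0.52 to 1.10, edgeR adjusted p = 0.000517). In the knockout experiment it was 38.7 to 46.5 CPM (median 40) in EKO libraries, 37.2 to 40.5 CPM (median 38.4) in WT libraries and 44.4, 43.5, 44.5 and 47.9 CPM in chow. EKO and WT overlapped (edgeR adjusted p = 0.131), and the small falls against chow (-0.14 and -0.23) turned to 0.43 and 0.42 with total-read scaling. The call in EKO was also lost without chow replicate 1, 3 or 4, over a range of -0.18 to -0.09.

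Of the 2 serine synthesis enzymes, both were higher in EKO than in WT, and with mAb Psat1 was higher and Phgdh lower than with IgG. Phgdh and Psat1 catalyse successive steps of that pathway. Phgdh was 17.3 to 21.8 CPM (median 18.5) in EKO libraries and 11.9 to 13.3 CPM (median 12.4) in WT libraries, against 30.6, 25.2, 23.5 and 24.98 CPM in chow, in 3 ranges that did not overlap. EKO exceeded WT with log2 fold change 0.60, 95% interval 0.46 to 0.74, edgeR adjusted p = 1.04e-06. With mAb, Phgdh was 5.38, 4.71, 5.51 and 5.14 CPM, against 6.16, 8.71, 8.24 and 8.47 CPM with IgG, and every mAb library lay below every IgG library (log2 fold change -0.61, 95% interval -0.89 to -0.33, edgeR adjusted p = 0.00222). Psat1 was higher in both: 15.4 to 22.7 CPM (median 17.6) in EKO libraries and 10.2 to 13.3 CPM (median 11.9) in WT libraries, against 32.1, 30.01, 21.9 and 27.1 CPM in chow (EKO over WT log2 fold change 0.64, 95% interval 0.41 to 0.87, edgeR adjusted p = 0.000108), and 38.1, 44.9, 52.2 and 38.3 CPM with mAb, against 32.3, 22.2, 31.5 and 20.1 CPM with IgG (log2 fold change 0.71, 95% interval 0.35 to 1.06, edgeR adjusted p = 0.00351). Of the Psat1 reads, 60.2% lay on coding transcripts. Asns, asparagine synthetase, was not called in any of the 4 comparisons. Its antibody groups did not overlap, at 11.6, 10.9, 11.5 and 11.4 CPM with mAb and 10.4, 10.8, 10.9 and 10.3 CPM with IgG. The chow fall of Phgdh in EKO libraries, -0.47, turned to 0.10 with total-read scaling, and that scaling left 0 genes of the arm lower and 3 higher in EKO, and 2 lower and 5 higher in WT, against chow.

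**Figure D3:**
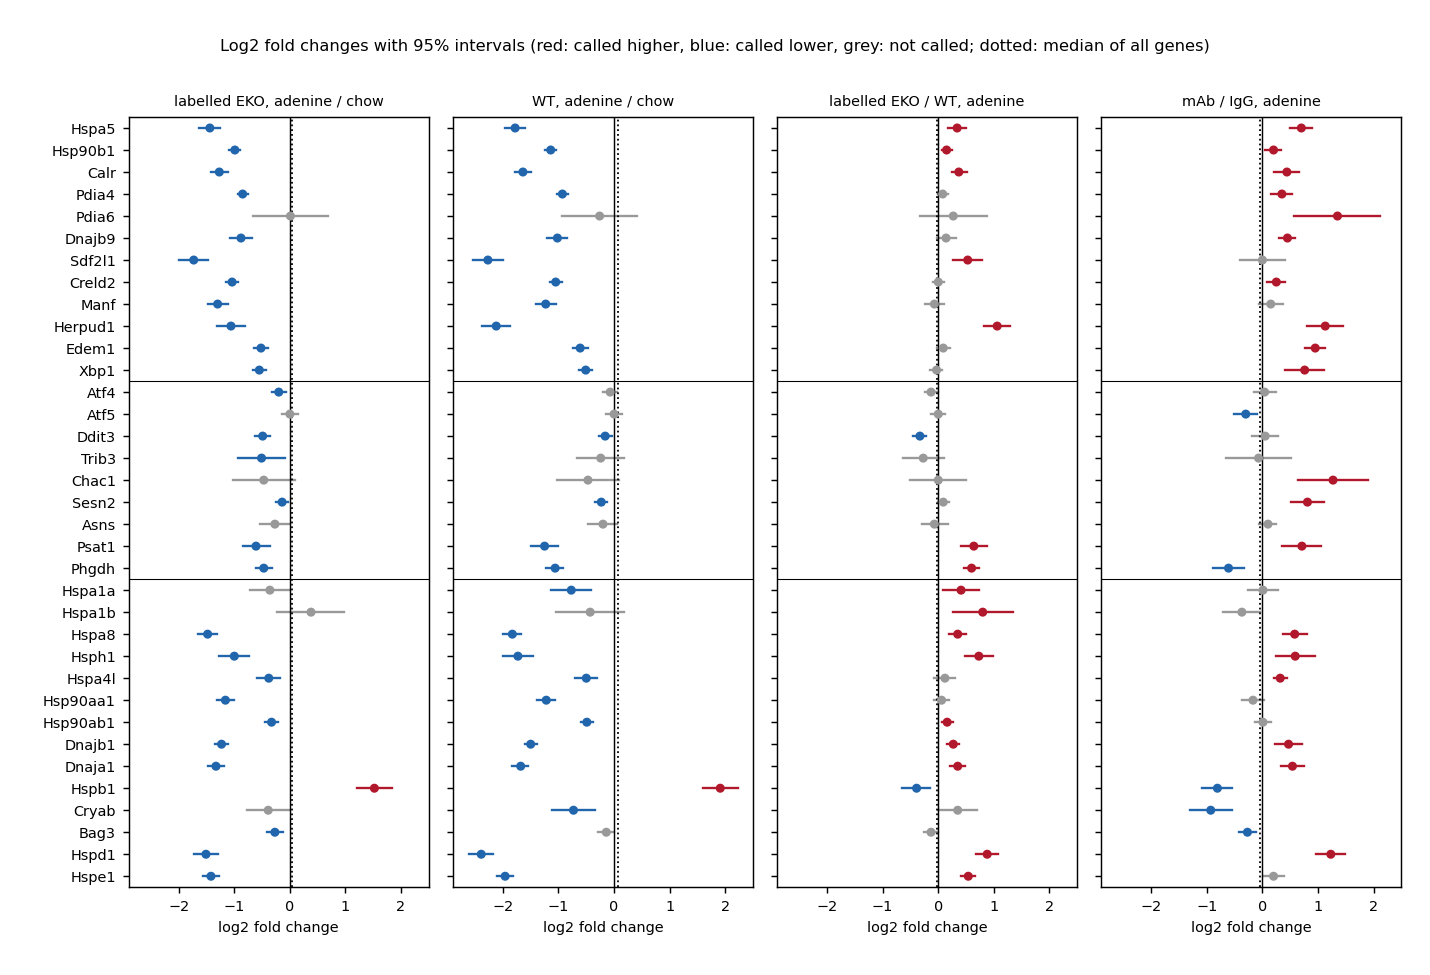
Log2 fold changes of the 35 genes (points) with 95% intervals (bars) in the 4 comparisons, all on the same x axis; red and blue are genes called higher or lower by edgeR, grey ones were not called, and dotted lines are the medians of all genes tested. Most points in the chow comparisons are blue and left of 0, and Herpud1, Hspd1 and Hspa5 are red in both right-hand panels.

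Among the chaperones outside the reticulum, 10 of 14 were lower in EKO and 11 of 14 in WT libraries than in chow, and 1 was higher. In EKO 9 of 14 were higher and 1 lower than in WT (7 and 2 with total-read scaling), and with mAb 6 were higher and 3 lower than with IgG, which total-read scaling turned to 2 higher and 6 lower. Against chow that scaling gave 4 higher and 7 lower in EKO and 3 higher and 7 lower in WT. With TMM, 39.9% of all genes tested were lower and 40.2% higher in EKO than in chow, and 40.9% lower and 44% higher in WT. The all-gene shares were 25.1% higher and 21.3% lower in EKO over WT, and 27.2% higher and 28% lower with mAb. Hspa8, the constitutive Hsp70 of the cytosol, had the highest TPM of the module in every group. It held 974 to 1284 CPM (median 1090) in EKO libraries, 783 to 968 CPM (median 876) in WT libraries and 3293, 3175, 2882 and 3110 CPM in chow libraries. The 3 ranges did not overlap, with EKO between WT and chow (EKO over WT log2 fold change 0.35, 95% interval 0.20 to 0.50, edgeR adjusted p = 0.000668; EKO over chow -1.48; WT over chow -1.83). With mAb it held 1943, 2187, 2247 and 1908 CPM, against 1242, 1351, 1424 and 1509 CPM with IgG (log2 fold change 0.58, 95% interval 0.37 to 0.80, edgeR adjusted p = 0.000577), without overlap. Its Hsp40 partners Dnaja1 and Dnajb1 moved in the same directions. Dnaja1 was 109 to 137 CPM (median 117) in EKO libraries, 84.05 to 102 CPM (median 94.3) in WT libraries and 316, 319, 261 and 301 CPM in chow, and Dnajb1 was 22.7 to 27.6 CPM (median 24.2), 19.1 to 21.9 CPM (median 20.9) and 60.9, 57.9, 54.6 and 58.8 CPM. Both were higher in EKO than in WT (0.35 and 0.27, edgeR adjusted p = 0.000192 and 0.000348) and with mAb than with IgG (0.54 and 0.47, adjusted p = 0.000621 and 0.00429), without overlap in either case. With total-read scaling the mAb differences missed the threshold. Reads of Dnaja1 may be split with near-identical copies, which held 10.1% of the summed reads.

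The Hsp90 pair of the cytosol fell against chow with little or no difference between the adenine groups. Hsp90aa1, the inducible form, was 356 to 397 CPM (median 362) in EKO libraries and 300 to 410 CPM (median 348) in WT libraries, against 881, 857, 743 and 820 CPM in chow, and EKO did not differ from WT past the threshold (log2 fold change 0.06, 95% interval -0.08 to 0.20, edgeR adjusted p = 0.497). Hsp90ab1, the constitutive form, was 537 to 597 CPM (median 579), 484 to 547 CPM (median 505) and 712, 760, 696 and 713 CPM, with smaller falls against chow (-0.33 and -0.49) that turned to 0.24 and 0.17 with total-read scaling. Its rise in EKO over WT, 0.16 (edgeR adjusted p = 0.00945), missed the threshold with upper-quartile and total-read scaling. With mAb, Hsp90aa1 was 808, 738, 754 and 735 CPM, against 971, 787, 837 and 826 CPM with IgG (log2 fold change -0.17, 95% interval -0.36 to 0.02, edgeR adjusted p = 0.11), and was called lower with upper-quartile scaling (-0.33) and total-read scaling (-0.41). Hsp90ab1 changed by 0.01 (95% interval -0.14 to 0.16, edgeR adjusted p = 0.936), which turned to a called -0.24 with total-read scaling.

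Hspa1a and Hspa1b were high in 2 libraries of the EKO group. Hspa1a and Hspa1b encode the same inducible Hsp70 and are 99.2% identical in sequence, so their split is uncertain and their sum is given first. The sum was 51.2, 50.9, 154, 54.0, 110 and 80.2 CPM in EKO replicates 1 to 6, and 55.1, 51.8, 54.0, 51.2, 50.4 and 53.1 CPM in WT replicates, against 92.1, 79.0, 61.0 and 79.7 CPM in chow. Replicates 3 and 5 of EKO stood above every other library of the experiment, replicate 6 lay among the chow values, and the other 3 lay among the WT values. Fitted as 1 gene, the sum had a log2 fold change of 0.67 in EKO over WT (edgeR adjusted p = 0.0184), 0.10 in EKO over chow (0.718), -0.57 in WT over chow (0.038) and -0.25 in mAb over IgG (0.133). Fitted apart, Hspa1a in WT over chow was called lower without overlap (-0.77, edgeR adjusted p = 0.000332), and Hspa1b was not called (-0.43, adjusted p = 0.175). That Hspa1a call was lost with total-read scaling (-0.13). Hspa1a and Hspa1b were each called higher in EKO than in WT (0.41 and 0.80, edgeR adjusted p = 0.0342 and 0.0159). Without replicates 3 and 5 the values were 0.10 and 0.20 (adjusted p = 0.397 and 0.266), a check chosen after seeing the data. Without replicate 3 alone, both calls were lost. The Hspa1a call was also lost without EKO replicate 5 or without WT replicate 1, 2, 4 or 5, and its values over the single omissions were 0.24 to 0.49, those of Hspa1b 0.49 to 0.93. With mAb, Hspa1a was 10.4, 10.1, 11.2 and 8.50 CPM, against 9.67, 8.12, 11 and 11.1 CPM with IgG, and Hspa1b was 20.6, 19.2, 19.2 and 14.6 CPM, against 18.5, 21.5, 24.1 and 31.1 CPM (edgeR adjusted p = 0.936 and 0.0582). The Hspa1b log2 fold change of -0.37 was called lower with upper-quartile scaling (-0.53), total-read scaling (-0.63) and DESeq2 (-0.36), and without IgG replicate 1 (-0.47), over a range of -0.47 to -0.22 for the omissions.

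The same 2 libraries were high in Hsph1, Hspa4l and Cryab. Hsph1, an Hsp110 exchange factor for Hsp70, was 62.8, 66.0, 110, 61.9, 94.9 and 72.1 CPM in EKO replicates 1 to 6 and 45.4 to 48.8 CPM (median 46.9) in WT libraries, against 169, 166, 133 and 156 CPM in chow. Every EKO library exceeded every WT library (log2 fold change 0.73, 95% interval 0.48 to 0.98, edgeR adjusted p = 7.11e-05). With mAb it was 93.7, 113, 128 and 108 CPM, against 54.4, 64.5, 80.05 and 94.8 CPM with IgG, ranges that overlapped slightly (log2 fold change 0.59, 95% interval 0.25 to 0.94, edgeR adjusted p = 0.00795, lost with total-read scaling). Hspa4l, another Hsp110, was 33.7, 34.8, 41.2, 31.9, 49.4 and 33.5 CPM in EKO replicates 1 to 6 and 32.7 to 38.6 CPM (median 33.9) in WT libraries, against 53.9, 46.5, 46.3 and 48.8 CPM in chow, and EKO over WT missed the threshold (log2 fold change 0.12, 95% interval -0.07 to 0.30, edgeR adjusted p = 0.295). It was higher with mAb, at 61.1, 64.6, 65.9 and 66.3 CPM, against 51.4, 51.5, 50.7 and 53.03 CPM with IgG (log2 fold change 0.32, 95% interval 0.20 to 0.44, edgeR adjusted p = 0.000667), and this call was lost with total-read scaling at 0.07. Cryab, the small heat shock protein alpha-B-crystallin, was 112, 90.8, 219, 134, 206 and 140 CPM in EKO replicates 1 to 6 and 104 to 139 CPM (median 117) in WT libraries, against 210, 206, 176 and 194 CPM in chow, and EKO over WT missed the threshold (log2 fold change 0.35, 95% interval 0.00 to 0.69, edgeR adjusted p = 0.0913). It was called without EKO replicate 1 (0.42, adjusted p = 0.0478) or 2 (0.46, adjusted p = 0.014), over a range of 0.21 to 0.46 for the omissions. Cryab in EKO over chow was called lower without EKO replicate 3 (-0.52) or 5 (-0.50). Hspa1a was so without EKO replicate 3 or 5 or chow replicate 3, over a range of -0.54 to -0.28. Without replicates 3 and 5, Cryab in EKO over chow was -0.72 (edgeR adjusted p = 3.38e-05), against -0.39 and 0.0581 with them, and Hspa1a was -0.67 (adjusted p = 9.53e-06), against -0.36 and 0.0548. In those 2 libraries Hspa8 was 1061 and 974 CPM and Hspd1 was 131 and 110 CPM, below the EKO medians. Dnajb1 was 25.6 and 23.9 CPM and Hspb1 77.3 and 91.3 CPM, within the range of the other EKO libraries. Bag3 was 25.5 and 26.0 CPM in replicates 3 and 5, slightly above the other EKO libraries (21.3 to 24.0 CPM) and within the WT range (24.3 to 27.4 CPM). Leaving both out gave 14 genes of the module higher and 4 lower in EKO than in WT, and 1 higher and 28 lower than chow.

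**Figure D4:**
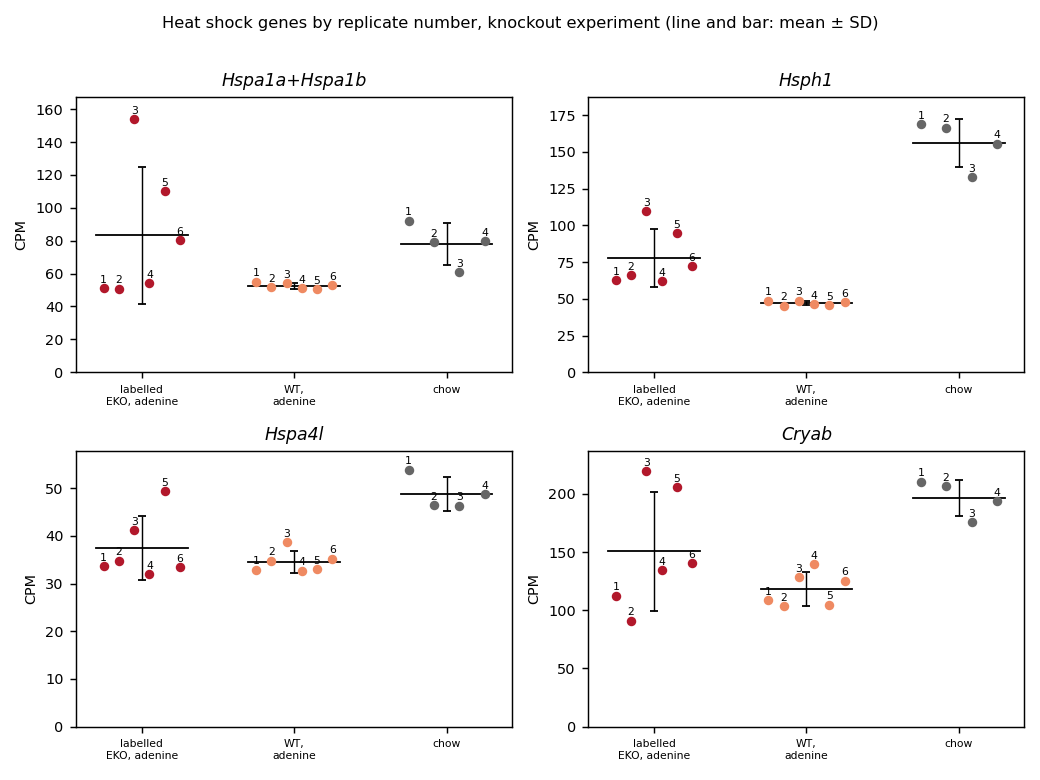
CPM of summed Hspa1a and Hspa1b, of Hsph1, of Hspa4l and of Cryab in the knockout experiment; the number above each point is the replicate number and lines and bars are group means ± SD. Replicates 3 and 5 are the highest 2 of the EKO group in all 4 panels.

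The small heat shock genes Hspb1 and Cryab and the cochaperone gene Bag3 were lower with mAb. Hspb1, which encodes HSP27, was 48.3, 34.8, 41.2 and 29.8 CPM with mAb, against 67.8, 71.1, 65.3 and 66.4 CPM with IgG, without overlap (log2 fold change -0.81, 95% interval -1.09 to -0.54, edgeR adjusted p = 0.000349). In the knockout experiment it was 65.3 to 95.4 CPM (median 76.2) in EKO libraries and 78.3 to 141 CPM (median 100) in WT libraries, against 28.2, 29.3, 24.2 and 27.8 CPM in chow, so that all adenine libraries were above all chow libraries (log2 fold change 1.52, 95% interval 1.21 to 1.83, edgeR adjusted p = 2e-08; 1.91 in WT) and EKO overlapped WT at a lower mean (log2 fold change -0.39, 95% interval -0.65 to -0.14, edgeR adjusted p = 0.0128). Cryab was 126, 74.7, 70.99 and 72.2 CPM with mAb, against 182, 154, 170 and 147 CPM with IgG (log2 fold change -0.93, 95% interval -1.31 to -0.55, edgeR adjusted p = 0.00107), and 1 mAb library was well above the other 3 but below all IgG libraries. Bag3, which links Hsp70 to small heat shock proteins, was 21.4, 19.8, 19.7 and 18.9 CPM with mAb, against 22.7, 26.2, 24.3 and 23.1 CPM with IgG (log2 fold change -0.27, 95% interval -0.43 to -0.12, edgeR adjusted p = 0.0074), also without overlap, and was not called between EKO and WT (-0.13, edgeR adjusted p = 0.0967). That difference was called lower with upper-quartile (-0.19) and total-read scaling (-0.21), without EKO replicate 5 (-0.16), and without EKO replicates 3 and 5 (-0.19). Its fall against chow in EKO, -0.27, turned to 0.30 with total-read scaling.

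Hspd1 had the largest fall of the arm against chow in both genotypes and its largest rise in EKO over WT and with mAb. Hspd1 and Hspe1 encode Hsp60 and Hsp10, the barrel and the lid of the chamber that folds imported proteins. Hspd1 was 110 to 188 CPM (median 145) in EKO libraries and 75.2 to 84.5 CPM (median 79.7) in WT libraries, against 438, 457, 363 and 409 CPM in chow, in 3 ranges that did not overlap (EKO over WT log2 fold change 0.88, 95% interval 0.68 to 1.08, edgeR adjusted p = 8.93e-07; EKO over chow -1.51; WT over chow -2.39). With mAb it was 488, 561, 522 and 629 CPM, against 226, 216, 288 and 208 CPM with IgG (log2 fold change 1.23, 95% interval 0.97 to 1.49, edgeR adjusted p = 5.02e-05). Hspe1 was 73.03 to 96.6 CPM (median 84.1), 54.6 to 62.6 CPM (median 58.3) and 239, 237, 204 and 221 CPM in EKO, WT and chow libraries, also without overlap (EKO over WT log2 fold change 0.54, 95% interval 0.41 to 0.67, edgeR adjusted p = 1.55e-06), and 123, 124, 114 and 129 CPM with mAb, against 117, 96.4, 115 and 98.9 CPM with IgG. In the antibody experiment the Hspe1 ranges overlapped, and it missed the threshold (log2 fold change 0.20, 95% interval 0.03 to 0.38, edgeR adjusted p = 0.0516), which it passed with RLE scaling, DESeq2 and the length offset at a value of 0.22 each, and without 3 of the 8 libraries in turn (range 0.17 to 0.25).

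These 2 genes are transcribed away from each other, with starts 215 bases apart in RefSeq, and the stretch between them is printed because it holds heat shock elements. The element reads GAA, TTC and GAA in turn, each 2 bases apart, on either strand. It occurs in 0.662% of genes in the promoter table, and in 3 of the 10 chaperone promoters (Hspd1, Hspe1 and Hsph1) and none of the other 20. The shared stretch at chr1:55087933-55088147 of GRCm38.p6, on the strand of Hspe1, holds 2 overlapping matches, in capitals. The match in Hsph1 is not printed here. No match was found in the windows of Hspa1a, Hspa1b, Dnajb1 or Hspb1, which says only that these letters are not within them.
Hspe1: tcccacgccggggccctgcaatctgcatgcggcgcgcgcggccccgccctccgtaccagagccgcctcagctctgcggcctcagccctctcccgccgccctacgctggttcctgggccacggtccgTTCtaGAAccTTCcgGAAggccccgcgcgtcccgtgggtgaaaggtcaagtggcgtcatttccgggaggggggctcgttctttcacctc

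Related genes outside the module were taken as lists, counted with TMM scaling alone, and those of folding were mostly lower on adenine than on chow. Of 37 other genes of folding and degradation in the reticulum, 34 were lower and 2 higher than chow in EKO and likewise 34 and 2 in WT libraries. In EKO 15 were higher and 1 lower than in WT, and 20 higher and 3 lower with mAb. Of all genes tested, 39.9% were lower and 40.2% higher in EKO than in chow, and 40.9% lower and 44% higher in WT. The all-gene shares were 25.1% higher and 21.3% lower in EKO over WT, and 27.2% higher and 28% lower with mAb. P4hb, protein disulfide isomerase, had the largest fall against chow in EKO, at a log2 fold change of -1.39 (311 ± 24.9 CPM, against 812 ± 71.3 in chow; edgeR adjusted p = 8.91e-13). Sil1, the exchange factor of BiP, had the largest rise both in EKO over WT (0.71; 22 ± 1.75 CPM in EKO and 13.5 ± 1.15 in WT) and with mAb (0.84; 28.9 CPM with mAb and 16.2 with IgG, edgeR adjusted p = 7.87e-05). Among 13 sensors and regulators, 7 fell and 6 rose against chow in EKO, and 6 fell and 5 rose in WT, counts near the all-gene shares. In EKO 5 were higher and 2 lower than in WT, and of 12 tested 5 were higher and 1 lower with mAb. Ern1, which encodes the sensor IRE1, had the largest of those rises in EKO, at 0.34 (edgeR adjusted p = 0.000518), and Dnajc3, an inhibitor of PERK, the largest falls, at -1.39 in EKO and -1.91 in WT. Dnajc3 was higher with mAb (193 ± 20.8 CPM, against 107 ± 7.54 with IgG; 0.85, adjusted p = 6.44e-05).

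ATF4-linked genes outside the module went both ways. Of 31 tested, 13 were higher and 16 lower than chow in EKO, 14 and 15 in WT, and 12 higher and 7 lower both in EKO over WT and in mAb over IgG. Over all genes tested the shares higher and lower were 40.2% and 39.9%, 44% and 40.9%, 25.1% and 21.3%, and 27.2% and 28% in those 4 comparisons. The counts against chow lie near them. Atf3, a stress-induced repressor, was 8.85 ± 2.08 CPM in EKO and 16.3 ± 3.01 in WT libraries, against 2.14 ± 0.332 in chow, and was the largest fall of the list in EKO over WT (-0.88, edgeR adjusted p = 5.02e-05). Cth, which makes cysteine from cystathionine, was 51 ± 13.1 CPM in EKO and 20.2 ± 1.81 in WT libraries, against 217 ± 16.7 in chow, and rose most in EKO over WT (1.34, adjusted p = 2.82e-07). With mAb, Shmt2, the mitochondrial serine hydroxymethyltransferase, rose most (91.4 CPM with mAb and 37.5 with IgG; 1.28, edgeR adjusted p = 5.16e-05), and Nupr1, a stress-induced nuclear protein, fell most (11.6 CPM with mAb and 31.4 with IgG; -1.43, adjusted p = 7.9e-05). Of the 4 kinases of eIF2alpha, 3 were higher and 1 lower than chow in either genotype. Eif2ak1, the haem-regulated kinase, was higher in EKO than in WT (0.24) and with mAb than with IgG (0.87; 64.6 CPM with mAb and 35.2 with IgG), and Eif2ak2, the RNA-activated kinase, was lower in both (-0.25 and -0.26).

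All 10 genes of mitochondrial protein folding outside the module were lower than chow in both genotypes, all 10 were higher in EKO than in WT, and 9 were higher with mAb. For these and the heat shock genes below, 39.9% of all genes tested were lower and 40.2% higher in EKO than in chow. In WT over chow the shares were 40.9% lower and 44% higher. They were 25.1% higher and 21.3% lower in EKO over WT, and 27.2% higher and 28% lower with mAb. Grpel1, the exchange factor of mitochondrial Hsp70, was 30.1 ± 5.12 CPM in EKO and 10.4 ± 0.94 in WT libraries, against 117 ± 9.67 in chow (EKO over WT 1.54, edgeR adjusted p = 8.67e-09). Trap1, the mitochondrial Hsp90, was 180 CPM with mAb, against 73.3 with IgG (1.29, adjusted p = 4.35e-05). Of 37 other heat shock and chaperone genes, 29 fell and 4 rose against chow in EKO, 30 fell and 5 rose in WT, and 18 rose and 3 fell both in EKO over WT and with mAb. Cdc37, which hands kinases to Hsp90, rose most in both of the last comparisons (0.57 and 0.71). Serpinh1, the collagen chaperone of the reticulum, fell most with mAb (72.6 CPM with mAb and 132 with IgG; -0.86, edgeR adjusted p = 0.000289). The fibroblast markers summed to 149 to 231 CPM with mAb and 377 to 693 CPM with IgG.

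**Figure D5:**
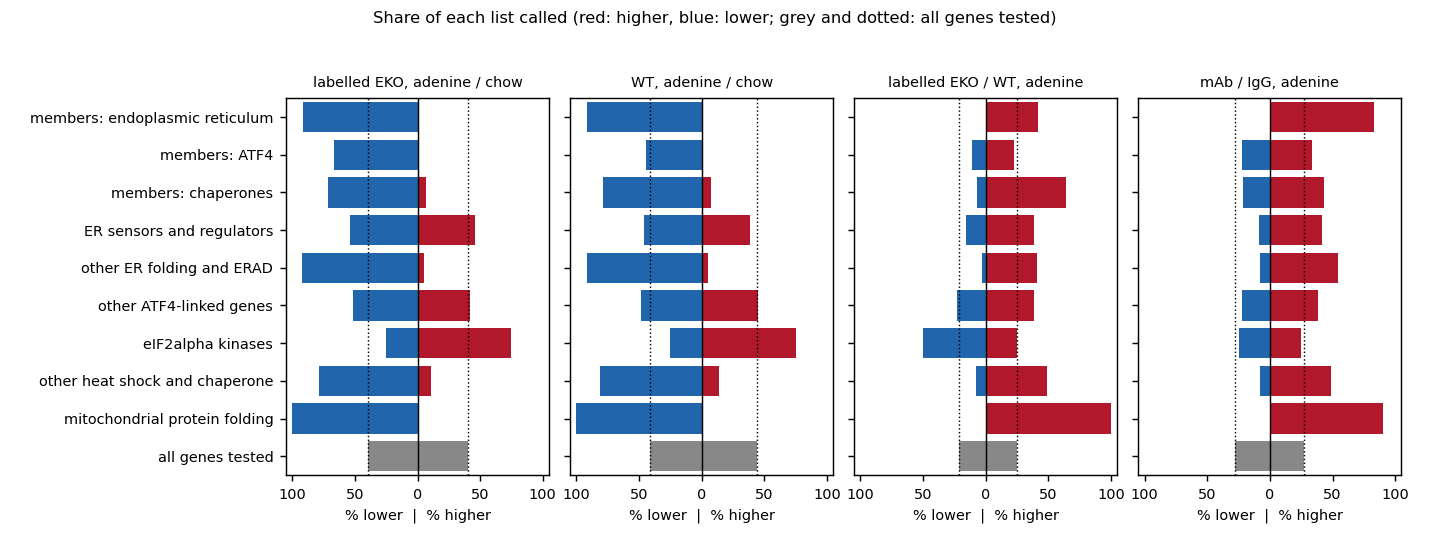
Share of each list called higher (red, right) or lower (blue, left) by edgeR in the 4 comparisons, for the 3 arms of the module and the 6 further lists; grey bars and dotted lines give all genes tested. The reticulum folding and mitochondrial lists reach past the dotted lines on the lower side against chow and on the higher side in the other 2 panels, while those of the other ATF4-linked genes lie nearer to them.

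By the deposited TPM, which corrects for transcript length, Hspa8 was first in all 5 groups, at 636 ± 53.0 TPM in EKO and 533 ± 32.1 in WT libraries, against 1050 ± 87.3 in chow, and at 928 ± 123 with mAb, against 720 ± 134 with IgG. The lowest in all 5 groups were Trib3 and Chac1, at 0.703 ± 0.138 and 0.475 ± 0.0765 TPM in EKO libraries. TPM is a share of each library's total and carries no TMM scaling. In TPM Xbp1 was 79.0 ± 5.68 TPM in EKO and 86.6 ± 6.84 in WT libraries, against 57.2 ± 4.23 in chow, with chow lowest where it was highest in TMM-scaled CPM. Counts with total-read scaling gave Xbp1 log2 fold changes over chow of only 0.02 in EKO and 0.13 in WT. The parts of scaling and of transcript length in the TPM values were not tested. Spread between libraries of a group had a median coefficient of variation of 8.15% in EKO, 7.52% in WT, 7.94% in chow, 11.1% in mAb and 9.38% in IgG libraries, and the widest was that of Hspa1b in EKO, at 57.6%.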

How the data were processed

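The 24 kidney libraries were stranded and made with 400 ng of RNA each, according to the labels' protocols. The submitters' processing notes name Salmon, FastQC, DESeq, DESeq2 and build GRCm39, without versions or roles. Per the file headers, the authors' estimated counts are per transcript and not normalized. TPM values are used as deposited, per the file headers. They serve for levels between genes and for a few levels by group, and were not tested. Effective transcript lengths, per the file headers, gave the length offset of an alternative.

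Estimated counts were summed per gene through the GENCODE M21 annotation and rounded. Of 116755 transcripts, 115685 matched (99.08%) and 1070 did not; the unmatched ones were left out. Genes were tested with edgeR 4.0.16 (R 4.3.3): filterByExpr, TMM, quasi-likelihood test, two-sided, Benjamini-Hochberg adjustment over all genes tested, threshold 0.05. The 16 libraries of the knockout experiment shared 1 fit and the 8 of the antibody experiment another. The fit was tested on simulated data for EKO over WT and mAb over IgG only. There a small set of genes changed, with as many rises as falls, so that test does not bear on the choice of scaling. Alternatives were RLE, upper-quartile and total-read scaling, no filter, DESeq2 1.42.0, a length offset, 2-group fits, a replicate block, omission of each library and of EKO replicates 3 and 5, and summing of copies of at least 95% identity over 400 bases. The 35 genes and all lists were chosen with earlier results of these data known. From each further list the rule names the called genes with the largest rise and fall among those with a mean of at least 5 CPM, and the text gives some of them. Nothing states that libraries of a group came from separate animals, so p-values measure the spread between these samples.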

Additional observations from a re-analysis of the deposited data

Results flagged for a closer look

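Of 175 sets of values, 1 for each of the 35 genes in each of the 5 groups, 7 had a library far from the rest of its group by Dixon's test; chance gives about 1 in 20. In the EKO group, replicate 5 held 7.54 CPM of Asns where the others held 5.23 to 6.08, replicate 2 held 137 CPM of Dnaja1 where the others held 109 to 119, and replicate 3 held 21.8 CPM of Phgdh where the others held 17.3 to 18.9. In the WT group, replicate 4 held 6.95 CPM of Pdia6 where the others held 4.08 to 4.90. With mAb, replicate 1 held 126 CPM of Cryab where the others held 71.0 to 74.7. Chow replicate 3 was low in both Herpud1, at 320 CPM where the others held 359 to 364, and Xbp1, at 144 CPM where the others held 164. When each of these libraries was left out, the gene it stood apart in kept its calls, except Asns, which was called lower in EKO than in chow without EKO replicate 5 (-0.34, edgeR adjusted p = 0.0135) and over all 10 single omissions of that comparison ranged from -0.34 to -0.11.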

How the results depend on the processing

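Counts of the 35 genes were within 1.5 times of those reported under RLE scaling, no filter, DESeq2, the length offset, 2-group fits, the replicate block and summed copies. Upper-quartile scaling gave 3 genes higher in WT over chow, and 4 lower in EKO over WT; without EKO replicates 3 and 5, also 4 were lower in EKO over WT. Total-read scaling gave 7 higher and 16 lower in EKO over chow, 8 higher and 18 lower in WT over chow, 13 higher and 4 lower in EKO over WT, and 10 higher and 8 lower in mAb over IgG. Over all genes tested, 50.2%, 51.8%, 54.1% and 49.3% of the calls in those comparisons were higher with TMM, 58.4%, 60.3%, 40.8% and 31.1% with upper-quartile scaling and 78.5%, 75.1%, 37.1% and 22.2% with total-read scaling. Omitting each library in turn gave 1 to 1 higher and 24 to 30 lower in EKO over chow, 1 to 1 higher and 25 to 28 lower in WT over chow, 14 to 17 higher and 2 to 4 lower in EKO over WT, and 18 to 20 higher and 4 to 6 lower in mAb over IgG.

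Upper-quartile scaling turned the log2 fold change in WT over chow of Atf4 to 0.16, Atf5 to 0.23 and Ddit3 to 0.07, and in EKO over chow of Sesn2 to 0.02. Total-read scaling turned it in EKO over chow for Edem1 (0.05), Xbp1 (0.02), Atf4 (0.37), Atf5 (0.57), Ddit3 (0.08), Trib3 (0.05), Sesn2 (0.43), Phgdh (0.10), Hspa4l (0.19), Hsp90ab1 (0.24) and Bag3 (0.30); in WT over chow for Edem1 (0.04), Xbp1 (0.13), Atf4 (0.58), Atf5 (0.65), Ddit3 (0.49), Sesn2 (0.42), Asns (0.44), Hspa4l (0.15), Hsp90ab1 (0.17) and Bag3 (0.51); and in mAb over IgG for Hsp90b1 (-0.05), Creld2 (-0.01) and Hsp90ab1 (-0.24). The scaling itself moves all genes by the median shifts given above. In all, 37 of 140 log2 fold changes differed in sign with total-read scaling and 11 with upper-quartile scaling, those that were never called included.

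Groups share replicate numbers, which the main fits did not use. Deviations of same-numbered libraries correlated at -0.32 to 0.06 in EKO and WT, at -0.12 to 0.21 in EKO and chow, at 0.00 to 0.17 in WT and chow, and at -0.27 to -0.10 in mAb and IgG. Differently numbered libraries were not compared, so these values cannot decide whether the samples were paired. With the number as a block, 1 gene was higher and 28 lower in EKO over chow, 1 and 26 in WT over chow, 14 and 2 in EKO over WT, and 18 and 5 in mAb over IgG. Genes with few reads, such as Chac1 and Trib3, have the least precise values.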
